A study of Mus musculus with 4 samples.

Results

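Of the 1084 entries that the authors' table of mouse olfactory neurons lists under a plain odorant receptor symbol, 77 lie on chromosome 11 and 1007 on other chromosomes. The 77 were taken as every entry whose symbol is Olfr followed by digits only and whose locus lies on chromosome 11, a rule that uses no measured value. A new sub-cluster was begun wherever the distance to the next receptor exceeded 1 Mb, which gave 6 sub-clusters. RNA came from mature olfactory sensory neurons that were dissociated from olfactory epithelium with papain and sorted by fluorescence, and polyadenylated RNA was sequenced in 4 libraries, 2 of the transgenic line Nd1 and 2 of control. Both Nd1 libraries combined Nd1+/- with OMP-IRES-tTA+/- and with OMP-IRES-GFP+/-, with replicate 1 at 212 days and replicate 2 at 87 days. Control replicate 1, at 212 days, was Nd1+/- without the activator (OMP-IRES-tTA-/-), and control replicate 2, at 87 days, was Nd1-/- with OMP-IRES-tTA+/-, and both carried OMP-IRES-GFP+/-. All 4 libraries therefore share the GFP reporter at Omp, the gene of olfactory marker protein, while tTA, a transcriptional activator placed at the same gene and so made in mature neurons, meets Nd1 only in the Nd1 libraries. The series title describes the mice as making double-stranded RNA from their genome, and the comparison with control asks what this changes in the sorted neurons. Each group has a single pooled FPKM value per locus (fragments corrected for transcript length and for total mapped fragments), so no spread between libraries, ages or mice can be given, and the number of mice per library is not stated in the labels.

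Odorant receptors are G protein-coupled receptors in the cilia of olfactory sensory neurons. Each mature neuron normally transcribes 1 allele of 1 receptor gene, so the RNA of a receptor in a pool of neurons follows both how many neurons chose it and how much each of them makes. The genes stand in arrays of closely related copies, usually with the whole coding sequence in a single exon. Enhancers bound by Lhx2 and Ebf proteins drive the choice of a gene, and a feedback signal that runs through Atf5, the histone demethylase Kdm1a and the adenylate cyclase Adcy3 then stabilises it. In pooled RNA, fewer neurons that chose a receptor and less of its RNA per neuron cannot be told apart.

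The sequence around the end of the third transmembrane segment shows how alike, and how unlike, these receptors are. The stretches printed here are coding bases of 6 members, 1 from each sub-cluster, taken from the GENCODE M21 transcripts, 45 bases each, 5′ to 3′. Capitals mark the 9 bases that encode aspartate, arginine and tyrosine, the motif by which the receptor engages its G protein. They are shown because these members have the highest level or the most extreme change of their sub-clusters.
Olfr1384: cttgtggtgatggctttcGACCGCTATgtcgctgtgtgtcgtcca
Olfr1377: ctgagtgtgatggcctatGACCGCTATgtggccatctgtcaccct
Olfr1371: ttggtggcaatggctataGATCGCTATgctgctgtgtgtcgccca
Olfr330: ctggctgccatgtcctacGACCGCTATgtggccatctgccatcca
Olfr390: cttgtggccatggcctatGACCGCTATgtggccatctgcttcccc
Olfr464: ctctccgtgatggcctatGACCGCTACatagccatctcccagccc
An open reading frame was found for 76 of the 77 members, with a median length of 312.5 codons, and 58 of them carry codons for these 3 amino acids in that order. The first of the 3 stands between codon 119 and codon 141. The stretch printed for Olfr1377 is shared base for base by 3 members, which include its neighbours Olfr1378 and Olfr51.

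The chromosome 11 receptors were lower in Nd1 almost throughout, with the mildest median in the last sub-cluster, where 1 of 3 tested members passed. Among the 73 tested members, the authors' deposited table called 65 lower and none higher at q under 0.05, and 8 missed that threshold. The remaining 4 members, Olfr1390, Olfr225, Olfr385 and Olfr401, were not tested. The 65 are 89.0% of the tested members, beside 19.2% of all tested loci that were lower and 88.1% of the tested receptors of other chromosomes. Of all tested loci 15.1% were higher, and of receptors of other chromosomes 0.424% were higher. No tested member lay above control at any p by Cuffdiff, the only tool whose calls are given. All 73 tested members were below control in value, although relative to Omp, itself much lower in Nd1, only 39 of the 73 were. Of the 4 members not tested, Olfr225 and Olfr385 lay above control in value and Olfr1390 and Olfr401 below it.

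The median receptor of the chromosome stood at 0.607 FPKM in Nd1 and 5.05 FPKM in control. The log2 ratios of the tested members had a median of -2.79 (6.91-fold lower in Nd1) and quartiles of -3.94 and -1.75. The same median was -3.19 over receptors of other chromosomes and -0.042 over all other tested loci. The chromosome's receptors summed to 191 FPKM in Nd1 and 701 FPKM in control, so that 27.2% of the control sum was present, while relative to Omp the Nd1 sum was 1.84 times the control sum. None of the 73 tested members was listed at 0 in Nd1. Of the 943 tested receptors of other chromosomes 27 were, and these 27 have no ratio. Whether these shares differ was not tested.

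**Figure D1:**
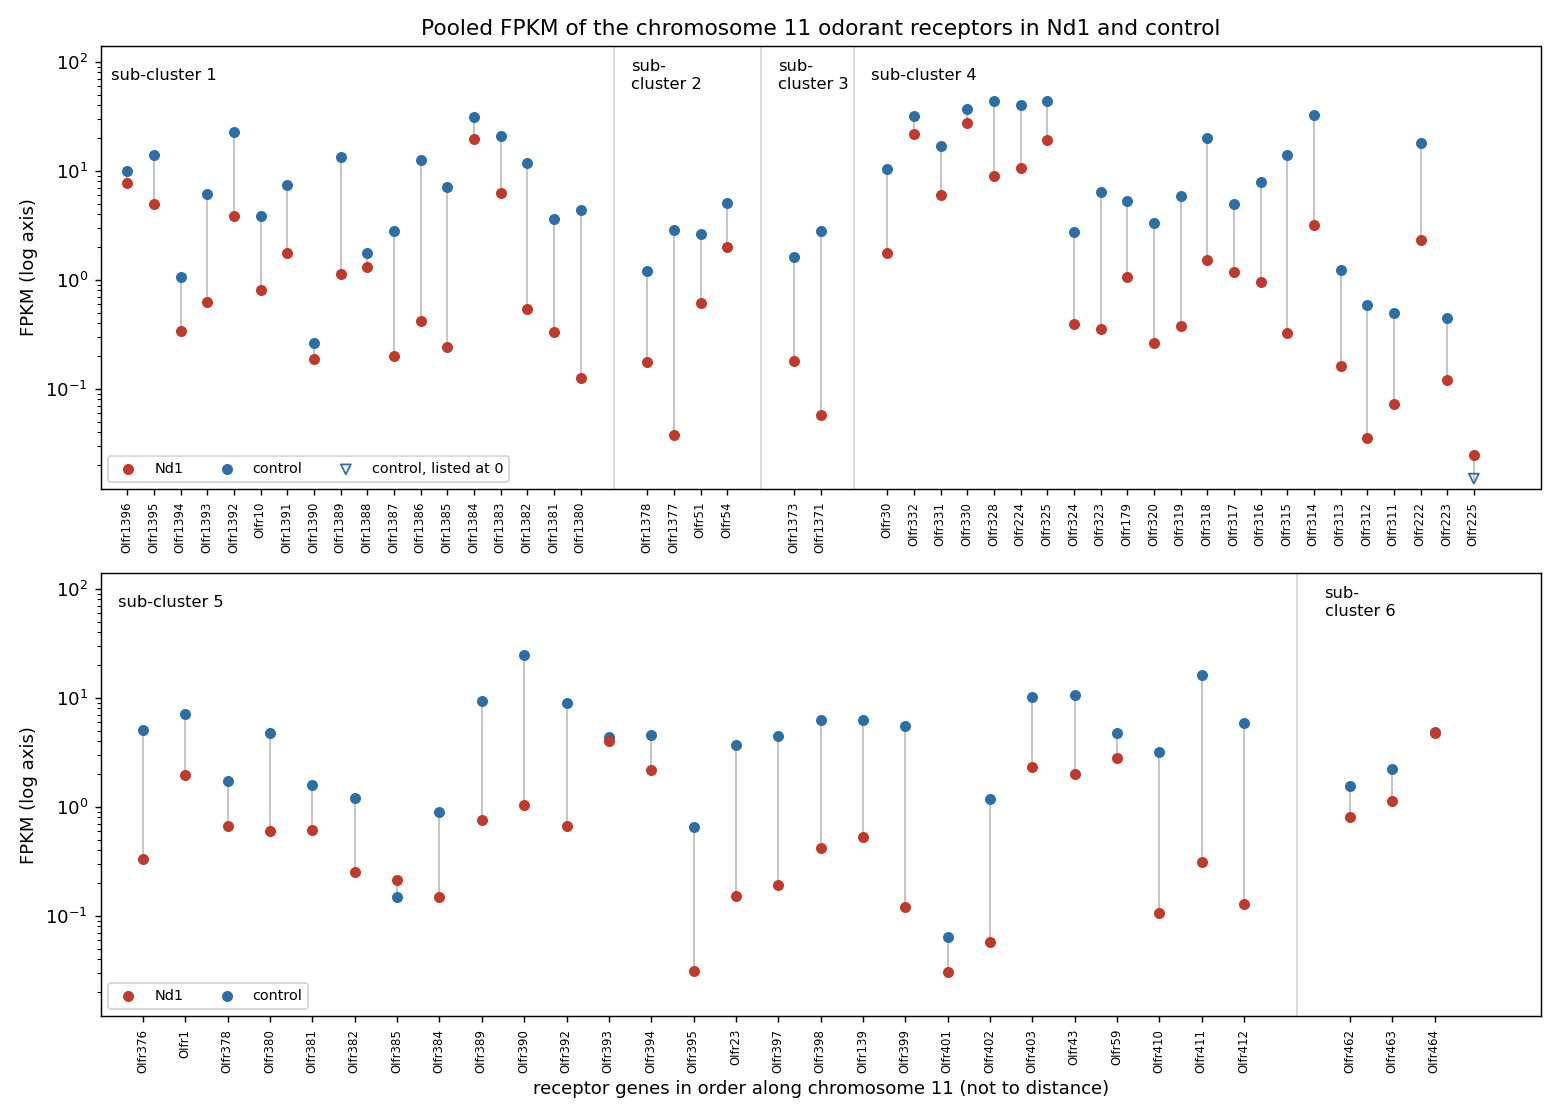
Pooled FPKM on a log axis for each of the 77 receptors, in order along chromosome 11 and not to distance, with Nd1 in red and control in blue joined by a grey line. Nearly every red point lies below its blue one, the 6 neighbours Olfr332 to Olfr325 stay at 5.99 FPKM or more in Nd1, and Olfr225 is listed at 0 in control (open triangle).

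The change reached from next to nothing to the near loss of a receptor's RNA. Of the 73 tested members, 63 were at least 2-fold lower, 51 at least 4-fold, 33 at least 8-fold, 18 at least 16-fold and 7 at least 32-fold. Of these, 60, 49, 32, 17 and 7 passed in the authors' deposited table, in the same order. At 1 FPKM or more stood 30 members in Nd1 and 68 in control, and at 10 FPKM or more 5 members in Nd1 and 22 in control. The receptor RNA of the chromosome was held by fewer genes in Nd1. The 5 highest members held 51.6% of the chromosome's summed FPKM in Nd1 and 28.0% in control, and the single highest member held 14.4% in Nd1 (Olfr330) and 6.27% in control (Olfr325). The 10 highest members of the Nd1 and control lists shared 7 genes.

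The median change did not run in 1 direction with the level in control. Among members under 2 FPKM in control the median log2 ratio was -2.59 and 10 of 15 tested members fell in the authors' deposited table. Between 2 and 5 FPKM it was -2.99 with 17 of 19 lower, and between 5 and 10 FPKM it was -3.64 with 16 of 17 lower. At 10 FPKM or more in control it was -2.49, and all 22 members fell. The order of the receptors was partly kept, with a Spearman correlation of 0.70 between the Nd1 and the control levels across the 73 tested genes, which share their libraries and are not independent. In this description no p is given.

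**Figure D2:**
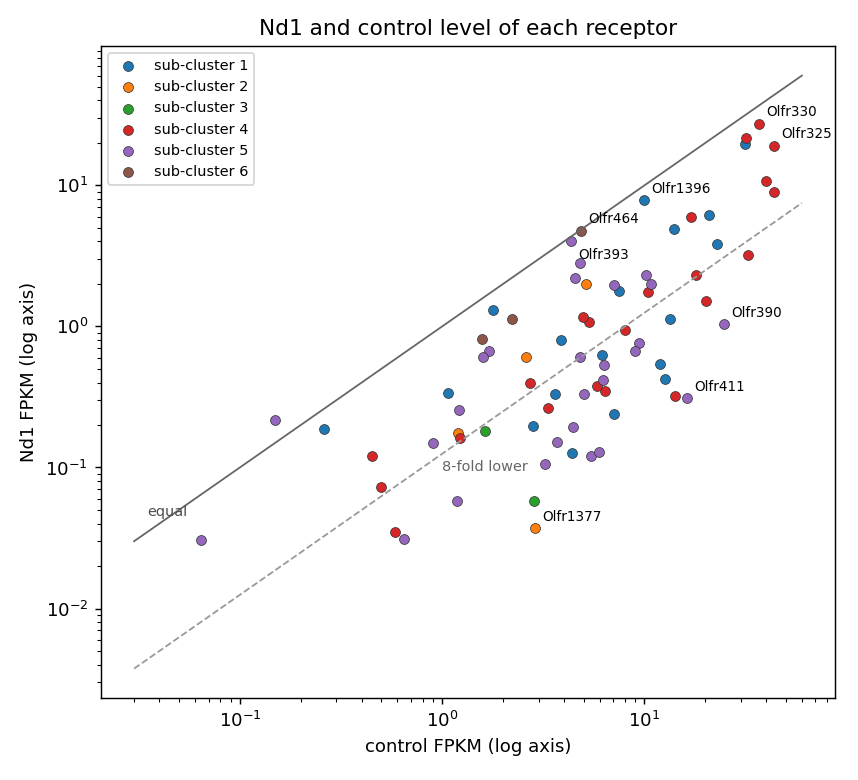
Nd1 FPKM against control FPKM for the 76 receptors above 0 in control, both on log axes, coloured by sub-cluster, with the solid line at equal levels and the dashed line at 8-fold lower in Nd1. Olfr464 and Olfr393 lie on or next to the line of equality, Olfr330 and Olfr325 at the upper right, and Olfr1377 lies at 0.037 FPKM in Nd1.

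Sub-cluster 1, from Olfr1396 to Olfr1380 (mm9 chromosome 11, 48851162 to 49378360), holds 18 receptors, of which 15 of 17 tested members fell. Its median log2 ratio was -2.57, and its members summed to 50.4 FPKM in Nd1 and 176 FPKM in control. The most abundant receptor of the array was Olfr1384 (49327120 to 49328153), which fell to 19.6 FPKM in Nd1, against 31.4 FPKM in control, a log2 ratio of -0.68 (q = 0.00132 in the authors' deposited table). Olfr1383, which starts 9074 bases further on, fell to 6.20 FPKM in Nd1, against 20.9 FPKM in control (log2 ratio -1.75). Their neighbours on either side changed far more. Olfr1385 had 0.241 FPKM in Nd1 and 7.05 FPKM in control (log2 ratio -4.87), and Olfr1382 had 0.545 FPKM in Nd1 and 11.9 FPKM in control (log2 ratio -4.45); both fell, and both are named after their values were seen. Olfr1392 (49106799 to 49107824), the second most abundant member in control, fell to 3.86 FPKM in Nd1, against 22.9 FPKM in control. The steepest fall of the array was that of its last member, Olfr1380, with 0.126 FPKM in Nd1 and 4.38 FPKM in control (log2 ratio -5.12).

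Olfr1396 and Olfr1388 were the tested members of sub-cluster 1 that did not pass. Olfr1396, at the outer end of the array, had 7.81 FPKM in Nd1 and 9.91 FPKM in control (q = 0.343 in the authors' deposited table). Its listed locus spans 97728 bases and is shared with Tgtp2, an interferon-inducible GTPase gene, with a joined entry of Ifi47 and Olfr56, and with 9930111J21Rik2, so its bounds are not those of the receptor alone. Tgtp2 rose to 0.502 FPKM in Nd1, against 0.081 FPKM in control. Whether reads of these genes entered the value of Olfr1396 was not tested. Olfr1388 stood in Nd1 at 73.0% of its 1.78 FPKM in control.

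Sub-cluster 2, from Olfr1378 to Olfr54 (50782522 to 50841447), holds 4 receptors, and all 4 fell. Its members summed to 2.81 FPKM in Nd1 and 11.8 FPKM in control. The steepest change of the chromosome was here. Olfr1377 (50798205 to 50799128) had 0.037 FPKM in Nd1 and 2.89 FPKM in control, a log2 ratio of -6.27 (q = 0.00769 in the authors' deposited table). That Nd1 value lies close to the bottom of what the table records. Multiplied by the locus length in kb it is 0.035, and the smallest such product above 0 among 962 short receptor loci was 0.029 in Nd1 and 0.033 in control. Its neighbour Olfr51 (50820476 to 50821399), whose printed stretch is the same, had 0.607 FPKM in Nd1 and 2.61 FPKM in control, a log2 ratio of -2.10. Olfr54, the most abundant of the 4, fell to 1.99 FPKM in Nd1, against 5.11 FPKM in control.

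Sub-cluster 3 consists of Olfr1373 (51958095 to 51959030) and Olfr1371 (52026554 to 52027489), and both fell. Olfr1373 had 0.181 FPKM in Nd1 and 1.63 FPKM in control (log2 ratio -3.17, q = 0.000134 in the authors' deposited table). Olfr1371 had 0.058 FPKM in Nd1 and 2.83 FPKM in control (log2 ratio -5.61). The pair together held 0.125% of the chromosome's receptor FPKM in Nd1 and 0.635% in control.

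Sub-cluster 4, from Olfr30 to Olfr225 (58268417 to 59427727), was the most abundant, with 108 FPKM in Nd1 and 347 FPKM in control over 23 members. It made up 56.6% of the chromosome's receptor FPKM in Nd1 and 49.5% in control. Of 22 tested members 19 fell, with a median log2 ratio of -2.79. The 3 that did not pass, Olfr312, Olfr311 and Olfr223, were all at or below 0.120 FPKM in Nd1 and 0.586 FPKM in control. Olfr225, not tested, was listed at 0 in control and had 0.025 FPKM in Nd1.

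Among the 77 receptors, the highest level in Nd1 (Olfr330) and the highest in control (Olfr325) both stood in a short stretch of sub-cluster 4. Olfr330 (58342431 to 58348327) fell to 27.4 FPKM in Nd1, against 36.9 FPKM in control, a log2 ratio of -0.43 (q = 0.0379 in the authors' deposited table). Olfr332 (58303251 to 58304255) fell to 21.8 FPKM in Nd1, against 31.7 FPKM in control, a log2 ratio of -0.54 (q = 0.0127 in the authors' deposited table). Olfr325 (58394339 to 58395379) fell to 19.1 FPKM in Nd1, against 43.9 FPKM in control, a log2 ratio of -1.20. Olfr330 and Olfr332 changed least among the 22 members at 10 FPKM or more in control. With Olfr331, Olfr328 and Olfr224 between them these 3 form a block of 6 neighbours from 58303251 to 58395379, marked out after the values were seen. Inside it the changes ranged widely, as Olfr331, Olfr328 and Olfr224 fell with log2 ratios of -1.50, -2.29 and -1.90. The block summed to 93.9 FPKM in Nd1 and 213 FPKM in control, with a median log2 ratio of -1.35. Olfr331, Olfr330, Olfr328, Olfr224 and Olfr325 are each at least 93.02% identical in coding sequence to another member of the block. Their separate values are therefore uncertain. The other 17 members of the sub-cluster summed to 14.1 FPKM in Nd1 and 134 FPKM in control, with a median log2 ratio of -3.01 over the 16 that were tested. Olfr30, 33769 bases before it, had 1.76 FPKM in Nd1 and 10.4 FPKM in control (log2 ratio -2.56), and Olfr324, 15468 bases after it, had 0.396 FPKM in Nd1 and 2.73 FPKM in control (log2 ratio -2.78). The ratios of the block and of the other members overlap, since Olfr317 outside it stood at -2.08 and Olfr223, which did not pass, at -1.91. Among abundant members outside the block, Olfr314 had 3.18 FPKM in Nd1 and 32.3 FPKM in control. Olfr318 had 1.51 FPKM in Nd1 and 20.2 FPKM in control. Both are named after their values were seen, and any part of the control level in the block's change was not tested. The locus listed for Olfr314 is shared with Fam183b, which rose to 9.38 FPKM in Nd1, against 2.21 FPKM in control.

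Sub-cluster 5, from Olfr376 to Olfr412 (73184748 to 74179111), is the largest, with 27 receptors, and 24 of its 25 tested members fell. Its median log2 ratio of -3.64 was below those of sub-clusters 1 and 4, and the summed level was 22.7 FPKM in Nd1 and 154 FPKM in control. Its share of the chromosome's receptor FPKM was 11.9% in Nd1 and 21.9% in control. Olfr390 (73600442 to 73601377), its most abundant member in control, fell to 1.04 FPKM in Nd1, against 24.7 FPKM in control, a log2 ratio of -4.57 (q listed as 0 in the authors' deposited table). Olfr43 fell to 2.01 FPKM in Nd1, against 10.7 FPKM in control. At the far end of the array stand Olfr411 (74160126 to 74161174) and Olfr412 (74178173 to 74179111). Olfr411 had 0.310 FPKM in Nd1 and 16.1 FPKM in control (log2 ratio -5.70), and Olfr412 had 0.129 FPKM in Nd1 and 5.94 FPKM in control (log2 ratio -5.53). With Olfr399, at 0.122 FPKM in Nd1 and 5.47 FPKM in control, they are 3 of the 5 steepest falls of the chromosome. Olfr393, named after its value was seen, was the only tested member of the array that did not pass, with 4.03 FPKM in Nd1 and 4.35 FPKM in control (q = 0.832 in the authors' deposited table). It stood highest of all members of the sub-cluster in Nd1, yet Olfr392, 30308 bases before it, had 0.674 FPKM in Nd1 and 8.99 FPKM in control. Olfr385, not tested, had 0.215 FPKM in Nd1 and 0.148 FPKM in control.

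Sub-cluster 6 lies 13.5 Mb further along (87702461 to 87728505), holds 3 receptors and had the median nearest to 0, at -0.95. Its members summed to 6.72 FPKM in Nd1 and 8.62 FPKM in control, so that 77.9% of the control sum was present. Olfr464 (87727422 to 87728505) had 4.78 FPKM in Nd1 and 4.83 FPKM in control, a log2 ratio of -0.016 (q = 0.975 in the authors' deposited table), the smallest difference of any tested member. Olfr463 fell to 1.12 FPKM in Nd1, against 2.22 FPKM in control (q = 0.0273 in the authors' deposited table). Olfr462 had 0.814 FPKM in Nd1 and 1.57 FPKM in control and did not pass (q = 0.0654 in the authors' deposited table). The sub-cluster held 3.52% of the chromosome's receptor FPKM in Nd1 and 1.23% in control. The differences between sub-clusters were not tested, because members of an array share reads and neighbours and each group has 1 pooled value.

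**Figure D3:**
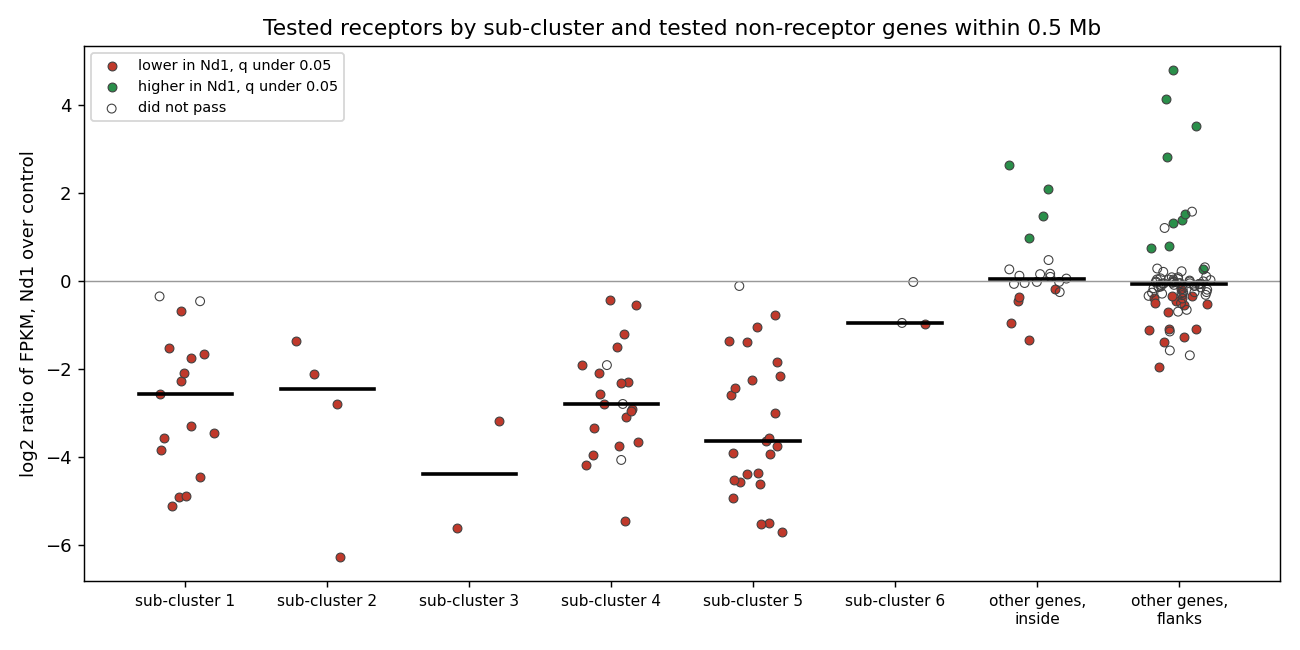
Log2 ratio of FPKM, Nd1 over control, for each tested receptor by sub-cluster and for tested non-receptor genes inside the sub-clusters or within 0.5 Mb of them, with a black bar at each median. Receptor medians run from -4.39 in sub-cluster 3 to -0.95 in sub-cluster 6, while the non-receptor genes centre on 0.062 inside and -0.071 in the flanks.

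Other genes within and beside the arrays lay near equality at the median. Inside the sub-clusters 36 non-receptor entries are listed, of which 21 were tested. Of these, 5 were lower and 4 were higher in the authors' deposited table, with a median log2 ratio of 0.062. In the flanks of 0.5 Mb, 16 of 83 tested entries were lower and 10 were higher, with a median of -0.071. Over all tested loci 19.2% were lower and 15.1% were higher. The largest changes among these neighbours were rises, and those given here are named after their values were seen. Irgm1, an interferon-inducible GTPase gene beside sub-cluster 1, rose to 14.1 FPKM in Nd1, against 0.507 FPKM in control (log2 ratio 4.80), and the joined entry of Gm12185 and Tgtp2 rose with a log2 ratio of 3.52. The joined entry of Igtp and Irgm2, of the same gene family and beside sub-cluster 4, rose to 27.1 FPKM in Nd1, against 1.54 FPKM in control (log2 ratio 4.14). Tex14 beside sub-cluster 6, known for its role in male germ cells, rose with a log2 ratio of 2.82. The 3 most abundant neighbours of each sub-cluster lay close to equality. Near sub-cluster 1, the ribosome-associated gene Gnb2l1 had 71.8 FPKM in Nd1 and 81.1 FPKM in control, and Cnot6, a subunit of the deadenylase complex, had 50.7 FPKM in Nd1 and 50.8 FPKM in control. The kinase gene Mapk9 was the only one of the 3 that passed, and fell to 27.3 FPKM in Nd1, against 31.1 FPKM in control. Near sub-cluster 2, the splicing kinase gene Clk4 had 26.7 FPKM in Nd1 and 25.1 FPKM in control, and the zinc finger genes Zfp354c and Zfp2 had 4.68 and 4.65 FPKM in Nd1 and 5.02 and 5.04 FPKM in control. Near sub-cluster 3, the ubiquitin ligase subunit gene Skp1a had 111 FPKM in Nd1 and 126 FPKM in control, the mitochondrial channel gene Vdac1 had 107 FPKM in Nd1 and 112 FPKM in control, and 9530068E07Rik had 99.9 FPKM in Nd1 and 104 FPKM in control. None of these 6 passed. Around sub-cluster 4, Arf1, a small GTPase gene of vesicle traffic that lies inside it, had 113 FPKM in Nd1 and 106 FPKM in control. Cops3, a subunit gene of the COP9 signalosome, had 54.1 FPKM in Nd1 and 50.2 FPKM in control, and the SNARE protein gene Snap47, also inside, had 47.3 FPKM in Nd1 and 39.2 FPKM in control. Near sub-cluster 5, Pafah1b1, a regulator of dynein, had 138 FPKM in Nd1 and 135 FPKM in control, E130309D14Rik had 33.5 FPKM in Nd1 and 40.4 FPKM in control, and Tmem93 had 34.1 FPKM in Nd1 and 34.6 FPKM in control. Near sub-cluster 6, Bzrap1 had 90.7 FPKM in Nd1 and 94.8 FPKM in control. None of these 7 passed. The tests of the other neighbours there failed, with 257 FPKM in Nd1 and 261 FPKM in control for the dynein light chain gene Dynll2, and 144 FPKM in Nd1 and 146 FPKM in control for the RNA-binding protein gene Msi2.

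Neighbouring receptors resembled each other only loosely. Between tested neighbours of a sub-cluster the log2 ratios differed by a median of 1.08 over 67 pairs, and over all 677 pairs within a sub-cluster by 1.45. Recent copies limit how far single members can be read. Only receptors under a plain symbol were compared, so copies listed as pseudogenes could add to the counts that follow. In the coding sequences 24 of 76 members are at least 95% identical to another receptor over the shorter of the 2 reading frames, 57 share at least 1 stretch of 50 bases with another receptor, and in 11 of them over 50% of such stretches are shared. No source used here gives the read length or the handling of reads that match several genes, so the values of such members are uncertain. In the 14 pairs that such a member forms with its closest receptor, where that is a member too, the log2 ratios differed by 0.033 to 1.27, with a median of 0.61. The closest pair, Olfr43 and Olfr403 in sub-cluster 5, is 98.73% identical, with log2 ratios of -2.42 and -2.14.

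Both members of sub-cluster 3 have close copies in sub-cluster 1, across the intervening sub-cluster 2. Olfr1373 is 98.61% identical to Olfr1381 and Olfr1371 is 97.76% identical to Olfr1380. The pairs had log2 ratios of -3.17 and -3.45, and of -5.61 and -5.12, with the sub-cluster 3 member first. The first 60 coding bases of the closer pair are printed here from the GENCODE M21 transcripts with the 3 differing bases in capitals.
Olfr1373: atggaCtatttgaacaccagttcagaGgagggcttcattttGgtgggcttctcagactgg
Olfr1381: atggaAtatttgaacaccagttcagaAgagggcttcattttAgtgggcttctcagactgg
A read that falls between such bases does not tell the copies apart. In the block of sub-cluster 4, Olfr330 and Olfr331 are 97.05% identical, yet their log2 ratios were -0.43 and -1.50. A stretch of 60 coding bases from the same transcripts, chosen because it holds 8 differences, marks these in capitals.
Olfr330: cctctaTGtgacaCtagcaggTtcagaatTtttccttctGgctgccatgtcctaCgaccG
Olfr331: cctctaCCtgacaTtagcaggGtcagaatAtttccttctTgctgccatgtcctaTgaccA

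Upstream sequence was described for the 66 members found in the RefSeq promoter table (GRCm38.p6), in windows of 250 bases before to 50 bases after the annotated start. Olfactory receptor promoters are known for homeodomain and Olf1/Ebf sites. In 45 of the 67 windows (67.2%) the annotated start is the start codon, so those windows are measured from the coding sequence and not from a transcription start. The homeodomain core TAATTA, which reads the same on both strands, occurs in 13 windows of chromosome 11 members (19.4%), in 18.6% of windows of receptors elsewhere and in 5.29% of all 32851 windows in the table. The annotated start is the start codon in only 5.83% of all windows, so these differ in kind from the receptor windows. Where it is not the start codon, TAATTA occurs in 13.6% of the 22 member windows and in 18.9% of windows of other receptors. The core of the Ebf palindrome, CCCNNGGG, also its own reverse complement, occurs in 2 member windows (2.99%), in 3.10% of those of other receptors and in 13.7% of all windows. The 12 tested members with TAATTA had a median log2 ratio of -3.70 and the 51 without it -2.59. This difference was not tested, and in 10 of the 13 windows with TAATTA the annotated start is the start codon. Tested members with a match to either core ranged from a log2 ratio of -0.11 (Olfr393) to -5.61 (Olfr1371). Of those whose annotated start is not the start codon, 3 are printed, with the match in capitals. Olfr324, also of this kind but not printed, holds TAATTA at -203 and had a log2 ratio of -2.78. Olfr330 (chr11:58534776-58535075, minus strand) holds CCCNNGGG at position -129 from the start.
Olfr330: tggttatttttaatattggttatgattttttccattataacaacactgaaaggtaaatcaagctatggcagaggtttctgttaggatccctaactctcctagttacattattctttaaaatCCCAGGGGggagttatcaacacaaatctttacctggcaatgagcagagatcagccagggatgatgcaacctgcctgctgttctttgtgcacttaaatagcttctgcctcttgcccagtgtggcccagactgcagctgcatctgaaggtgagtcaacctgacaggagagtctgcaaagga
Olfr1 (chr11:73399446-73399745) and Olfr378 (chr11:73428428-73428727), neighbours in sub-cluster 5 on the minus strand, hold TAATTA at -94 and -88.
Olfr1: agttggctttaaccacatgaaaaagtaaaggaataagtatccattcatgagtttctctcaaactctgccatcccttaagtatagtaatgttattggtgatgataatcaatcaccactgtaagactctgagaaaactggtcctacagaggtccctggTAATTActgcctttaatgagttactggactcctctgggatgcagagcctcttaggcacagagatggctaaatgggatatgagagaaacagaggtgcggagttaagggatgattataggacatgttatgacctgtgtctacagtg
Olfr378: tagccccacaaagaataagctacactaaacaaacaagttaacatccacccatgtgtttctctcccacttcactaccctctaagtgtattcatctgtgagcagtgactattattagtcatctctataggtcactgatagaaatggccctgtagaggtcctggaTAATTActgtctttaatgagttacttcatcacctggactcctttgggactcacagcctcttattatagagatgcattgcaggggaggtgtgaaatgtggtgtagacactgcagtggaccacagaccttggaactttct
Olfr1 fell to 1.98 FPKM in Nd1, against 7.06 FPKM in control, and Olfr378 fell to 0.666 FPKM in Nd1, against 1.71 FPKM in control. A match is a description of the letters and not of a bound site.

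Set against the other chromosomes, the receptors of chromosome 11 lay in the middle. Among the 13 chromosomes with 10 or more tested receptors the median log2 ratio ran from -3.83 on chromosome 7 to -1.95 on chromosome 10, with 5 chromosomes above chromosome 11 and 7 below it. By the summed level, 27.2% of the control FPKM was present in Nd1 on chromosome 11, behind 40.1% on chromosome 10 and 36.2% on chromosome 19. Chromosome 11 thus held 11.7% of all receptor FPKM in Nd1 and 8.13% in control. The block from Olfr332 to Olfr325 held 93.9 of the chromosome's 191 FPKM in Nd1 and 213 of its 701 FPKM in control.

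**Figure D4:**
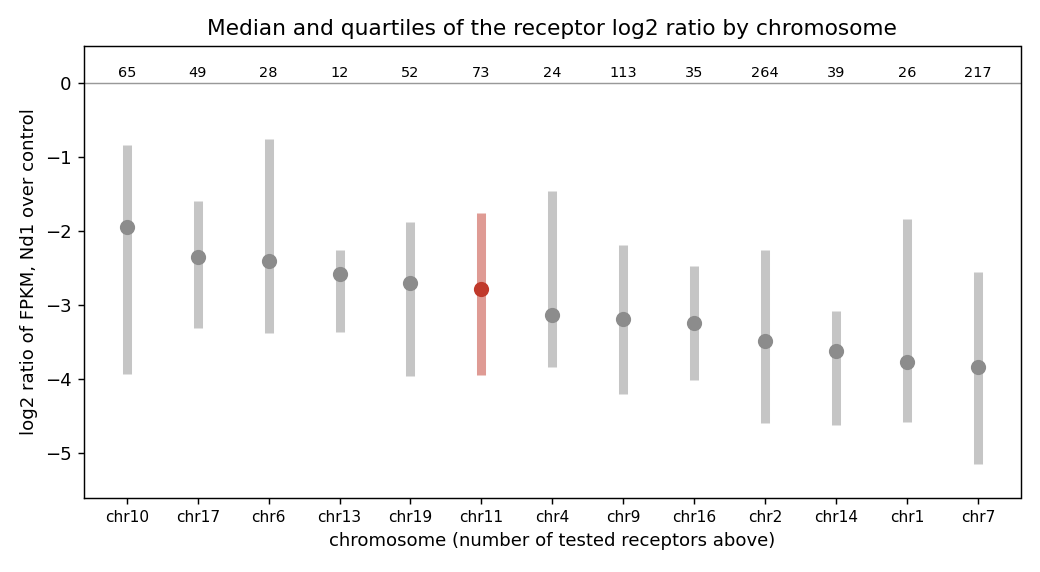
Median log2 ratio of FPKM, Nd1 over control, for tested receptors of each chromosome with at least 10 of them (points), with bars from the lower to the upper quartile and the number of tested receptors above. Chromosome 11, in red at -2.79, lies sixth of the 13 chromosomes from the mildest median.

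The genes that serve receptor expression and signalling had a median nearer to 0 than the receptors, with Omp as an exception. Of 22 genes listed for these roles 16 were tested, and the authors' deposited table called 10 lower and 2 higher and left 4 uncalled, with a median log2 ratio of -0.43. Among the regulators of receptor choice, Lhx2 fell to 172 FPKM in Nd1, against 227 FPKM in control. Ebf1 rose to 166 FPKM in Nd1, against 108 FPKM in control, and Emx2, a homeodomain factor of receptor transcription, rose to 66.7 FPKM in Nd1, against 39.5 FPKM in control. Ldb1, the adaptor of Lhx2, and Kdm1a did not pass. In the feedback pathway Atf5 fell to 779.6 FPKM in Nd1, against 1404 FPKM in control, and Adcy3 fell to 496 FPKM in Nd1, against 888 FPKM in control. The chaperones that carry receptors to the membrane, Rtp1 and Rtp2, did not pass, with 473 FPKM in Nd1 and 566 FPKM in control for Rtp1. Among the signalling genes Cnga2, a channel subunit, fell to 486 FPKM in Nd1, against 859.5 FPKM in control, and Gnal, the G protein alpha subunit, had 924 FPKM in Nd1 and 1672 FPKM in control, but its test failed. At the far end of the list stood Omp, with a log2 ratio of -2.76 close to the receptor median. Ric8b, an exchange factor for the G protein, had 273 FPKM in Nd1 and 796 FPKM in control, but its test failed too.

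Markers of several cell types differed between Nd1 and control, in both directions. All 8 tested markers of mature neurons fell, with a median log2 ratio of -0.83, and the 10 listed markers summed to 7019.8 FPKM in Nd1 and 17036 FPKM in control. Omp fell to 605 FPKM in Nd1, against 4087 FPKM in control, and control replicate 1, unlike the other libraries, lacks the tTA allele of Omp. All 8 markers of immature neurons rose, and summed to 757 FPKM in Nd1 and 369.9 FPKM in control. Of 5 progenitor markers only Neurod1 was tested, and it did not pass. All 3 horizontal basal, 4 gland and 5 neutrophil markers fell, as did 3 of 7 sustentacular markers, Ptprc among 2 tested lymphocyte and macrophage markers, and the haemoglobin gene Hbb-b1. Their summed levels were 6.04 FPKM in Nd1 and 12.2 FPKM in control for horizontal basal cells, 293 FPKM in Nd1 and 326 FPKM in control for sustentacular cells, and 4.18 FPKM in Nd1 and 8.24 FPKM in control for gland. They were 5.06 FPKM in Nd1 and 28.2 FPKM in control for neutrophils, 0.740 FPKM in Nd1 and 0.933 FPKM in control for lymphocytes and macrophages, and 1.26 FPKM in Nd1 and 1.03 FPKM in control for progenitors, while Hbb-b1 had 11.9 FPKM in Nd1 and 22.7 FPKM in control. Cd3e in control was the only one of these markers listed at 0. The part of these differences in the receptors' change was not tested.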

How the data were processed

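The deposited table of the authors gives 1 pooled FPKM value per group for 28168 loci and lists the log2 fold change, p-value and q-value of Nd1 against control beside them, per the file headers. Alignment with Bowtie, testing with Cuffdiff 1.3.0 and the build mm9 stand in the submitters' processing notes, with annotation and filters not given in the sources used here. Columns of single samples used number 0. The depth of each library is unknown, and no interval or detection floor is given. Of the loci, 14841 were tested, 12711 have no test and the test failed in 616.

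No test was run here: calls are the authors' at q under 0.05, adjusted by them over all tested loci. They cover only 2 libraries a group, which the labels do not tie to separate mice. The p-values therefore speak only for these libraries, which differ in age within each group and, in control, also in genotype. From the table, log2 ratios of Nd1 over control (within 1.38e-05 of the listed fold change), medians, sums and counts were computed with pandas 2.3.3 in Python 3.11.15, and tested on simulated data with known groups and changes. Members, gene lists and motifs were chosen with earlier results of these data known. Coordinates follow the deposited mm9 loci, made 1-based. Sequences were matched by symbol, and coding identities were computed with blastn 2.17.0 between the GENCODE M21 open reading frames.

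Members are named by a rule. It takes the 3 most abundant per sub-cluster, the 5 largest changes in each direction among called members of at least 1 FPKM, those of at least 5 FPKM that did not pass, sub-clusters of up to 2 members in full, and the 3 most abundant non-receptor neighbours of each sub-cluster. Other members are named after their values were seen. Alternatives were other pseudocounts, scalings, thresholds and distances between sub-clusters.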

Additional observations from a re-analysis of the deposited data

How the results depend on the processing

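No paired analysis was possible because the table holds 1 pooled value per group, and for the same reason no replicate could be left out. The counts of receptors that fell were within 1.5 times their values at q under 0.01, at 1 FPKM or more and at 2-fold or more, except that sub-cluster 6 then counted 0 at q under 0.01 and 0 at 2-fold. At q under 0.01 the chromosome counted 57 lower members in place of 65. Among the members named by the rule, Olfr330, Olfr332 and Olfr463 no longer passed. Centring on other loci moved ratios by 0.044. The median log2 ratio of the chromosome was -1.67 with a pseudocount of 1, -2.49 with 0.1, -2.59 after quantile normalization, -1.96 relative to mature neuron markers and -0.034 relative to Omp. The sum ratio of Nd1 over control was 0.272, or 0.298 per FPKM of all other loci and 1.84 relative to Omp. For sub-clusters 1 to 6 in order, the medians were -1.67, -1.10, -1.50, -1.69, -1.93 and -0.50 with a pseudocount of 1, and -1.74, -1.61, -3.56, -1.96, -2.80 and -0.12 relative to mature neuron markers. Relative to Omp they were 0.19, 0.31, -1.63, -0.032, -0.88 and 1.81, so that sub-clusters 1, 2 and 6 turned. For sub-clusters 2 to 5 they were -2.09, -3.42, -2.34 and -3.03 with a pseudocount of 0.1, and for sub-clusters 2 to 6 they were -2.17, -4.19, -2.54, -3.44 and -0.63 after quantile normalization. With a distance over 2 Mb the first 3 sub-clusters joined, with 21 lower and a median of -2.78. Relative to Omp 10 named members that had fallen turned, to log2 ratios of 1.00 (Olfr1383), 2.07 (Olfr1384), 0.19 (Olfr1392), 1.55 (Olfr325), 2.33 (Olfr330), 2.21 (Olfr332), 0.34 (Olfr43), 1.77 (Olfr463), 0.65 (Olfr51) and 1.39 (Olfr54), as did Olfr1396 (2.41), Olfr462 (1.81) and Olfr464 (2.74), which had not passed. Relative to mature neuron markers the sign turned for Olfr1384 (0.15), Olfr330 (0.41) and Olfr332 (0.29), and for Olfr1396 (0.49) and Olfr464 (0.81), which had not passed. Both scalings subtract 1 reference log2 ratio from every member, -2.76 for Omp and -0.83 for the mature neuron markers. The sign of a member therefore turned where its own fall was smaller than that of the reference. Why the references themselves were lower in Nd1 was not tested. Since 8 members lie under 0.1 FPKM in Nd1 and 2 in control, ratios built on such values are the least certain.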

Other observations

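The table lists 7 further receptor entries on chromosome 11 whose symbols are not plain, 5 of them pseudogenes and 2 joined with another gene. Of the 7, 6 fell in the authors' deposited table. Olfr1372-ps1, near Olfr1373, had 25.8 FPKM in Nd1 and 53.3 FPKM in control, above every plain receptor of the chromosome in control. Olfr329-ps, inside the block from Olfr332 to Olfr325, had 11.6 FPKM in Nd1 and 70.1 FPKM in control, a log2 ratio of -2.59. The joined entry of Olfr20 and Spata22 had 0.773 FPKM in Nd1 and 7.07 FPKM in control, and that of Ifi47 and Olfr56 had 0.371 FPKM in Nd1 and 2.83 FPKM in control. In sub-cluster 5, Olfr391-ps had 0.663 FPKM in Nd1 and 5.44 FPKM in control, and Olfr406-ps had 1.04 FPKM in Nd1 and 3.52 FPKM in control. Olfr75-ps1, with 0.643 FPKM in Nd1 and 1.13 FPKM in control, did not pass (q = 0.146 in the authors' deposited table).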
